A study of Mus musculus with 87 samples.

Results

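The cardiac sarcomere genes examined here were 10 genes picked by symbol from 43346 Ensembl genes in each expression table: the myosin heavy chains Myh6 and Myh7, the myosin light chains Myl2, Myl3, Myl4 and Myl7, the troponins Tnnt2, Tnni3 and Tnnc1, and the cardiac actin Actc1. The rule names the genes by identity, they were chosen with earlier results of these data known, and all 10 were matched by Ensembl identifier and followed through 64 RNA-seq libraries. The libraries came from a study of mice in which single boundaries between topologically associating domains (TADs) had been deleted, in order to ask whether losing a boundary alters nearby gene expression and development. Each line, B2 to B8, carries a deletion of a different boundary made by genome editing of FVB zygotes. The comparison in each line is between homozygous mutants and wild-type embryos at embryonic day 11.5 (E11.5).

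Hearts made up 20 of the 64 libraries. B2 gave 4 wild-type and 4 homozygous hearts, B3 and B5 gave 2 of each, and B6 and B7 gave 2 homozygous hearts each and no wild-type heart. Faces came from B3, B5, B6 and B7 with 2 wild-type and 2 homozygous libraries in each line, 16 in all. Lungs came from B2 with 6 of each genotype. Gut and midbrain came from B4 and forebrain and neural tube from B8, with 2 of each genotype in each tissue. The deletions are in the germline, so homozygous embryos lack the boundary in all of their cells, and each library is bulk RNA of a dissected tissue that mixes cell types. Libraries are called here by the codes of their titles, such as A58. The titles gave no replicate numbers, and no source used here said which tissues came from the same embryo.

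Total counts per library ran from 8391553 to 31793440, and from 18790226 to 24310649 in hearts. The defining heart markers matched the labels: Nkx2-5, a cardiac transcription factor, was at 101 to 305 TPM (a transcript-based level scaled for length and to the same total in each library) in hearts and at most 8.43 TPM in any other library, and Nppa, the atrial natriuretic peptide gene, was at 572 to 5707 TPM in hearts and at most 2.74 TPM elsewhere. 4 libraries stood apart. The B5 homozygous heart A21 held Myog, a skeletal muscle regulator, at 22.4 TPM against at most 6.22 TPM in the other hearts, the lowest Nppa of all hearts, and a summed level of the Cranial and pharyngeal mesenchyme list of 659 TPM (82.5 to 321 TPM in the other hearts) and of the Neural progenitor and neuron list of 348 TPM (22.8 to 67.3 TPM). The B2 homozygous heart A58 held a Hepatocyte list sum of 709 TPM against at most 138 TPM in the other hearts. The B2 wild-type lungs E5420-07 and E5420-09 had 0.36% and 1.54% mitochondrial counts, against 11.3% to 14.05% in the other 10 lungs. In E5420-09 the 10 highest genes took 90.1% of counts, against 22.8% to 29.7% in the other lungs. Tests of genotype that rest on these 4 libraries are given below with and without them. The levels, ratios and correlations over all 20 hearts include A21 and A58.

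Heart muscle shortens when myosin heads on the thick filament pull on actin in the thin filament, inside the repeating unit called the sarcomere. Each myosin molecule pairs a heavy chain with an essential and a regulatory light chain, and calcium binding to troponin C, held by troponin T and checked by troponin I, sets the thin filament on or off. Several of these proteins exist as chamber-biased pairs encoded by separate genes: Myl7 and Myl4 are the regulatory and essential light chains typical of atria, Myl2 and Myl3 those typical of ventricles, and in the mouse Myh7 is the heavy chain of the fetal ventricle while Myh6 is that of atria and of the adult ventricle. Several members are also used by skeletal muscle: Actc1, Tnnt2 and Myl4 while it develops, and Myh7, Myl2, Myl3 and Tnnc1 in its slow fibres.

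The members lie on 7 chromosomes of mm10. Myh6 (ENSMUSG00000040752, chr14:54941921-54966927, minus strand) and Myh7 (ENSMUSG00000053093, chr14:54970684-54994626, minus strand) are neighbours. Tnnc1 (ENSMUSG00000091898, chr14:31208312-31211729, plus strand) is elsewhere on the same chromosome. Myl4 (ENSMUSG00000061086, chr11:104550663-104595753, plus strand) and Myl7 (ENSMUSG00000020469, chr11:5896637-5898782, minus strand) share chromosome 11. The others are Myl2 (ENSMUSG00000013936, chr5:122100951-122113472, plus strand), Myl3 (ENSMUSG00000059741, chr9:110741861-110769798, plus strand), Tnnt2 (ENSMUSG00000026414, chr1:135836354-135852260, plus strand), Tnni3 (ENSMUSG00000035458, chr7:4518305-4524229, minus strand) and Actc1 (ENSMUSG00000068614, chr2:114047282-114053548, minus strand). By the study's methods, the B2 and B5 deletions are on the chromosome of Myl2, and no other member shares a chromosome with the deletion of a line analysed here. Counting by strand was not stated, so reads of Myh7 and of Mhrt, an antisense transcript overlapping it, could not be told apart, and the same holds for the other members with an annotated gene on the opposite strand.

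Promoter windows of 250 bases before the annotated start were read from RefSeq on GRCm38.p6, the assembly of mm10, for all 10 members. 6 are shown, for the 3 members with a CArG box, the binding motif of serum response factor, for Tnnc1, which together with Actc1 was the member highest outside the heart relative to its heart level, and for the neighbouring heavy chain genes. The windows are chr9:110763428-110763677 on the plus strand for Myl3, chr11:5898783-5899032 on the minus strand for Myl7, chr2:114052876-114053125 on the minus strand for Actc1, chr14:31208062-31208311 on the plus strand for Tnnc1, chr14:54966608-54966857 on the minus strand for Myh6 and chr14:54994627-54994876 on the minus strand for Myh7. Capitals mark a match on either strand to the CArG box, to CATTCC, the MCAT motif bound by TEAD factors, to TATAA, or to a GATA factor motif spelled AGATAA. No 2 matches overlapped.
Myl3 promoter: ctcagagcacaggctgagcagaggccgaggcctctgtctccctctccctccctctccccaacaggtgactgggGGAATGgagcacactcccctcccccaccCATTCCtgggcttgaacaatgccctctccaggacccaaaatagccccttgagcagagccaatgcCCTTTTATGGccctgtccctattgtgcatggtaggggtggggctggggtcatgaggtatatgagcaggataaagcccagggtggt
Myl7 promoter: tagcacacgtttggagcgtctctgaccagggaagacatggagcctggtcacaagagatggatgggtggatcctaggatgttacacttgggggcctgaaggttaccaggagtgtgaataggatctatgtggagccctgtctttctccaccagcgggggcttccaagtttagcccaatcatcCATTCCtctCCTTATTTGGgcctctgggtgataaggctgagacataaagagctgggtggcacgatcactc
Actc1 promoter: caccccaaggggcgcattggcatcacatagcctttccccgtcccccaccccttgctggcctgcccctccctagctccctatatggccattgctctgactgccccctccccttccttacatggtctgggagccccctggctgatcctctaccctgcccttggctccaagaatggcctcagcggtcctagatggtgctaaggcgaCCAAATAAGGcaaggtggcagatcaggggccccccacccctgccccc
Tnnc1 promoter: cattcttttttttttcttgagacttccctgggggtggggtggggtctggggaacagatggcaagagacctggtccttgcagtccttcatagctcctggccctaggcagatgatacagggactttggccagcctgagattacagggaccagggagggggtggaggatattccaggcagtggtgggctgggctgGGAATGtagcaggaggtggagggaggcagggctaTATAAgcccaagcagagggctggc
Myh6 promoter: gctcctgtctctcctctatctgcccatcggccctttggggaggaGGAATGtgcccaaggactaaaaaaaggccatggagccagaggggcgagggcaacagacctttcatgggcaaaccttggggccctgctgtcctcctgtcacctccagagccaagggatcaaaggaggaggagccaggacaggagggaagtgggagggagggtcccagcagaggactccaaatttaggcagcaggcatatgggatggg
Myh7 promoter: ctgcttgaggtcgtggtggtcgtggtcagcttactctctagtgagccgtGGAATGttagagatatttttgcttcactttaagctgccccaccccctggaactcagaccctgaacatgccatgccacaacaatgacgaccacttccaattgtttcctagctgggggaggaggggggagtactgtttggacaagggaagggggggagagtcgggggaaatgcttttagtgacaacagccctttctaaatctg

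The CArG box was matched in 3 of 10 members, Myl3, Myl7 and Actc1, and in 1.47% of all 32851 windows of this length. In Actc1 it ran from base -47 to -38 and in Myl7 from -61 to -52, counted from the start, and in Myl7 a CATTCC lay just before it at -70 to -65. CATTCC was matched in 6 of 10 members against 12.6% of all windows, and in the Myh6 and Myh7 windows shown its reverse began at about the same distance, -206 and -201. Myh7 has another RefSeq start, 77 bases further into the gene, and its window held no match to any of the motifs. TATAA was matched in 3 of 10 members (22.8% of all windows), AGATAA in 2 of 10 (9.99%) and the MEF2 box in none (2.92%). These are letter matches, not measured binding. The RefSeq starts of Actc1, Myl3 and Myh6 lie 673, 21817 and 320 bases inside the GENCODE gene bounds given above, and those used for Myl7, Tnnc1 and Myh7 coincide with them. For Myl2, not shown, the windows lie before starts 8227 and 7762 bases upstream of its GENCODE bounds. The Myl2 matches to TATAA and AGATAA lie in those windows. For Tnni3, also not shown, the start lies 1701 bases inside.

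In hearts the 10 genes together took 1.62% to 5.15% of all TPM, with a median of 3.73% over 20 libraries. TPM is scaled for transcript length and library size, so levels of different genes can be set side by side. The ventricular regulatory light chain Myl2 was the most abundant member, from 2650 to 12589 TPM with a median of 8809, which ranked 6 among all genes. Actc1, the cardiac sarcomeric actin, followed at 3677 to 8977 TPM with a median of 7019. Myl2 was above Actc1 in 16 of 20 hearts, so that the order of these neighbours did not hold in every library. Actc1 was above the next member, Myl7, in 18 hearts.

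**Figure D1:**
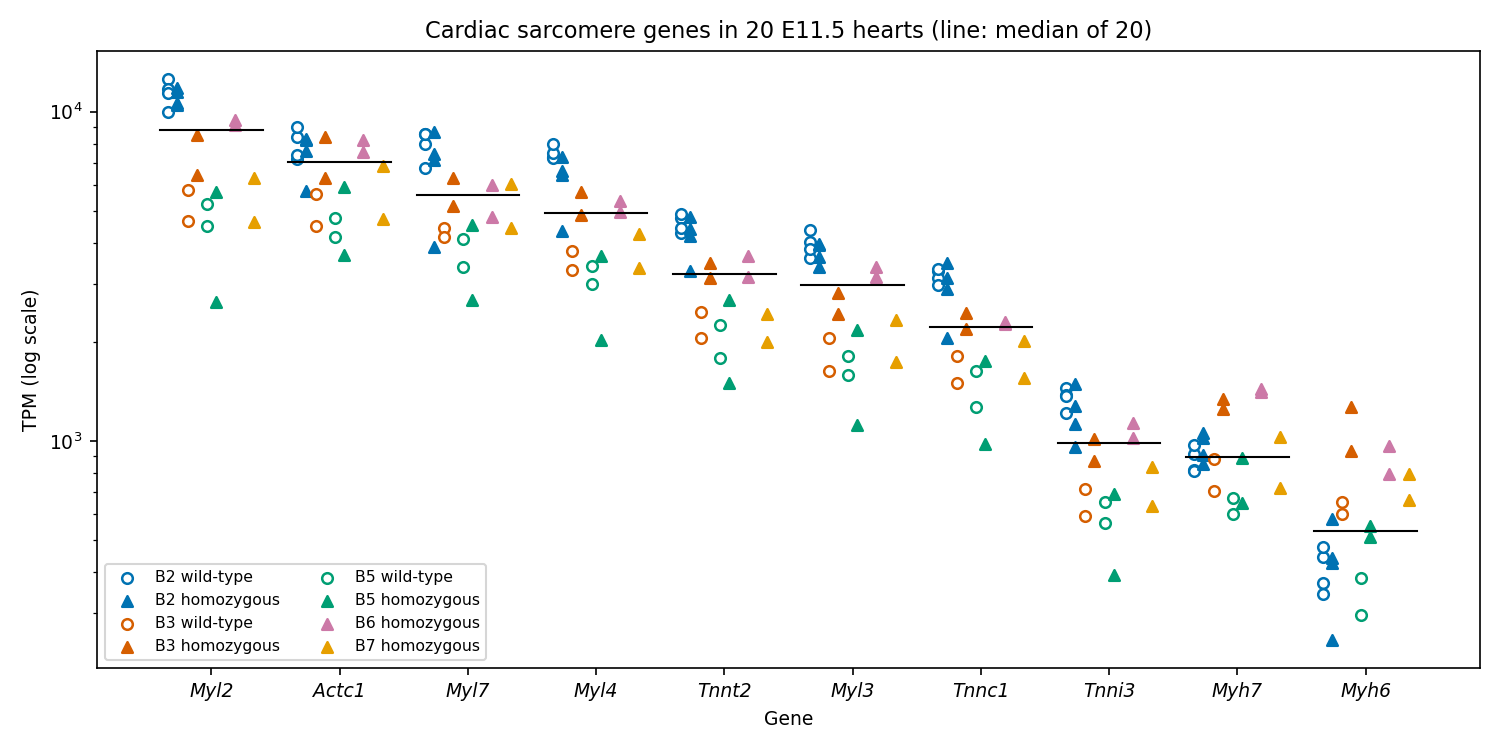
TPM (log scale) of each of the 10 genes in each of the 20 hearts, ordered by median. Open circles are wild-type and filled triangles homozygous hearts, colours are lines, and the horizontal bar is the median of the 20. Myl2 has the highest median, 8809 TPM, and Myh6 the lowest, 532 TPM. Most of the 8 B2 hearts lie high for most genes other than the heavy chains.

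The atrial light chains came next. Myl7, the atrial regulatory light chain, ran from 2676 to 8653 TPM with a median of 5591. Myl4, the atrial essential light chain, ran from 2033 to 8006 TPM with a median of 4915. Myl7 was above Myl4 in 17 of 20 hearts. The ventricular essential light chain Myl3 was lower than its atrial counterpart, at 1118 to 4377 TPM with a median of 2981. Its range overlapped that of troponin T, Tnnt2, at 1499 to 4894 TPM with a median of 3211, and Tnnt2 was the higher in 18 hearts. The calcium sensor Tnnc1 ran from 980 to 3468 TPM with a median of 2226, below Myl3 in all 20 hearts.

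Tnni3, the cardiac isoform of the inhibitory troponin, was low by comparison, at 393 to 1487 TPM with a median of 988. The slow skeletal isoform Tnni1, which is the main inhibitory troponin of the embryonic heart, had a median of 1992 TPM (825 to 3011). The heavy chains were the lowest members per length. Myh7 ran from 601 to 1440 TPM with a median of 896 and Myh6 from 249 to 1266 TPM with a median of 532. Tnni3 exceeded Myh7 in only 8 of 20 hearts although its median was higher, so these neighbours did not differ beyond their spread, whereas Myh7 exceeded Myh6 in all 20. Myh6 was also the most variable member, with a coefficient of variation of 43.7%, against 24.7% for Actc1 and 26.4% for Myh7, the least variable. Related genes that could share reads with a member were at medians of 309 TPM (Acta1, the skeletal actin), 1459 TPM (Acta2, the smooth muscle actin), 5.33 TPM (Actg2), 14.7 TPM (Myh7b), 0.135 TPM (Myh3) and 216 TPM (Myl1).

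Within a heart the atrial and ventricular isoforms can be compared directly. The ratio of Myl2 to Myl7 ran from 0.99 to 2.75, with a median of 1.34, and was above 1 in 19 of 20 hearts. The heart below 1 was A21. On the log2 scale the mean ratio of Myl2 to Myl7 was 0.46 ± 0.34 (SD, n = 20). The essential light chains went the other way: Myl3 over Myl4 ran from 0.492 to 0.779 and was below 1 in 20 of 20, with a mean log2 of -0.85 ± 0.16 (SD, n = 20). The ratio of Myh7 to Myh6 was above 1 in all 20 hearts, from 1.06 to 3.64, with a mean log2 of 0.77 ± 0.47 (SD, n = 20).

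The heavy chain ratio differed between lines. In B2 it was 1.11 ± 0.28 in wild-type and 1.23 ± 0.46 in homozygous hearts (log2, mean ± SD, n = 4 each), and the direction rested on A58, which had the highest ratio of all hearts (1.86): without it the homozygous mean was 1.02 ± 0.22 (SD, n = 3), below the wild-type mean. In B3 it was 0.33 ± 0.14 and 0.26 ± 0.24 (n = 2 each), and in B5 it was 0.91 ± 0.15 and 0.51 ± 0.40 (n = 2 each). B6 homozygous hearts stood at 0.70 ± 0.18 and B7 at 0.25 ± 0.18 (n = 2 each). The ranges of B2 and B3 did not overlap, while the genotypes overlapped within B2 and within B3, and in B5 both wild-type hearts were above both homozygous ones. These ratios are descriptions with no test, and line and library batch cannot be told apart. One B2 homozygous heart, A58, had the highest Myl2 over Myl7 (log2 1.46) and the highest Myl3 over Myl4 (-0.36). Its Myl7 was 3874 TPM, against 7152 to 8653 TPM in the other 3 homozygous hearts of B2. Its Myl2, at 10647 TPM, lay within the range of those 3, 10478 to 11825 TPM. The part of the liver marker RNA of A58 in its ratios was not tested.

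**Figure D2:**
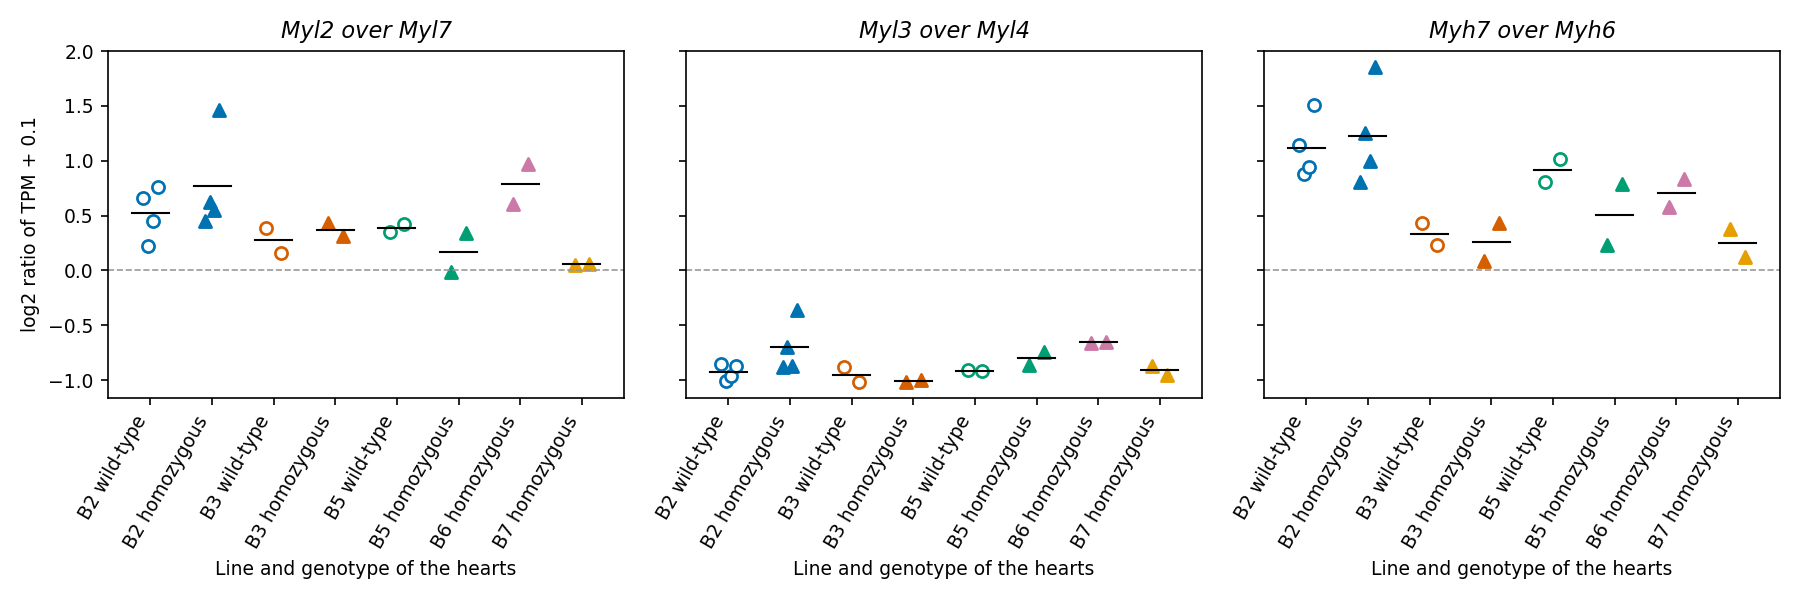
Log2 ratio of a ventricular-type to an atrial-type isoform (TPM + 0.1) in each heart, by line and genotype; the bar is the group mean and the dashed line marks equal levels. Myl3 over Myl4 is below 0 in every heart, Myh7 over Myh6 is above 0 in every heart with the highest group means in B2 (1.11 and 1.23), and A58 is the point at 1.46 for Myl2 over Myl7.

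The members varied together across hearts. The 28 pairs that leave out the heavy chains had Pearson correlations of 0.896 to 0.994 across the 20 hearts (log2 of library-scaled counts, CPM, plus 1), with Tnnt2 and Tnni3 at 0.994 and Myl2 and Myl3 at 0.992. Myh6 departed from that group, with 0.17 against Myl2, 0.396 against Actc1 and 0.616 against Myh7. Myh7 had 0.667 (Myl7) to 0.846 (Actc1) against the light chains, troponins and Actc1. These correlations describe libraries that share line, batch and depth, so no test is attached. CPM is not scaled for length, and Myh6 and Myh7 are long, at 5658 and 6125 bases, against 590 to 1473 for the other members. The part of transcript length in these correlations was not tested. Over 11268 genes with a mean of at least 5 CPM in hearts, those whose profile across the 20 hearts was most like the mean of the members were Pdhb (r = 0.989), Cox5a (0.986), Gpx3, Asb2, Popdc2 and Rrad (0.985 each), Cox6a2 and Sh3bgr (0.984 each), Lrrc10 (0.983) and Mlip (0.982). Across all 64 libraries, where the contrast of heart with other tissues dominates, they were Ankrd1, Apobec2, Pygm and Klhl30 (0.995 each), Hrc, Sh3bgr and Myom1 (0.994 each), and Trim63, Atcayos and Trim55 (0.993 each). Myom1 encodes an M-band protein of the sarcomere, Hrc a calcium-binding protein of the sarcoplasmic reticulum, and Cox5a and Cox6a2 subunits of cytochrome c oxidase.

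Outside the heart the members were low, but not equally so. Their joint share of all TPM was 0.0534% to 0.0702% in neural tube, 0.00496% to 0.0276% in gut, 0.00167% to 0.0176% in face, and at most 0.00392% in lung, 0.00323% in forebrain and 0.000866% in midbrain. For the same 2 lines, B3 and B5, all 10 members were higher in heart than in face with edgeR's quasi-likelihood test, in which 34.6% of 16009 genes were called higher in heart. The fitted log2 differences for the members with the most counts in face were 7.35 (SE 0.32, adjusted p = 8.05e-11) for Actc1, 7.69 for Tnnc1, 9.14 for Myl4 and 9.55 for Tnnt2. For Myl2, 6 of the 8 faces of these lines had no count at all, so its fitted value is no measure of size. In B2, all 10 members were higher in heart than in lung, where 38.8% of 15780 genes were called higher in heart. The smallest of these differences was that of Myl7, 8.03 (SE 0.21), followed by Myh6 at 9.36. All 10 were also called higher in heart without the lungs E5420-07 and E5420-09. In bulk samples, fewer cells of a type and less RNA per cell cannot be told apart.

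**Figure D3:**
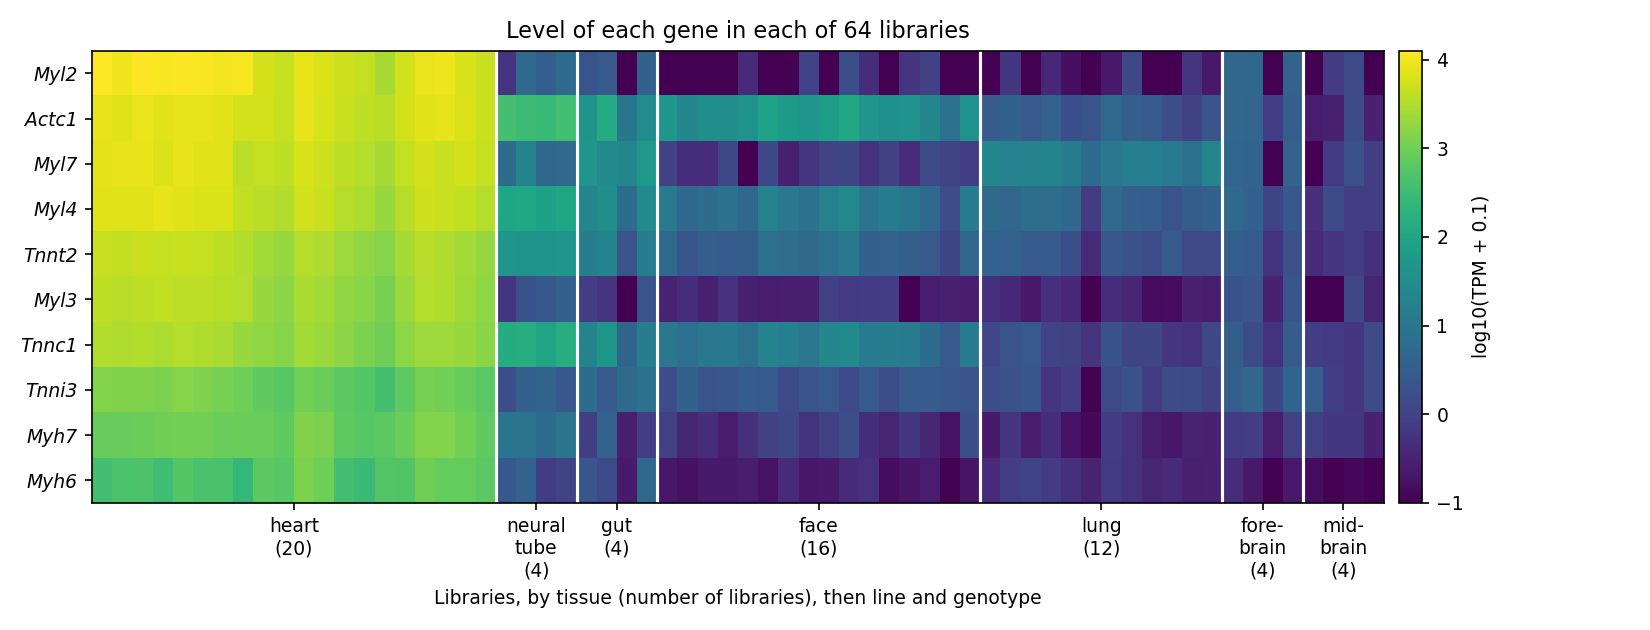
Log10(TPM + 0.1) of each gene (rows, ordered by heart median) in each of the 64 libraries (columns, by tissue, then line and genotype). Every gene is highest in the 20 hearts. Actc1, Tnnc1, Myl4 and Tnnt2 are the brightest rows in neural tube, and Myl7 is the brightest row in lung.

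The neural tube of B8 held the highest levels of Actc1, Tnnc1, Myl4, Tnnt2 and Myh7 outside the heart, each without overlap with the other libraries that are not hearts. Actc1 was at 291 and 368 TPM in homozygous and 388 and 319 TPM in wild-type neural tubes, a median 4.9% of that in hearts. Tnnc1 was at 95.5 and 152 TPM in homozygous and 143 and 147 TPM in wild-type tissue, 6.52% of the heart median. Myl4 reached 2.16%, Tnnt2 1.38% and Myh7 1.01% of their heart medians. The skeletal muscle genes Myog (87 to 148 TPM), Mylpf (212 to 271 TPM) and Acta1 (71.8 to 131 TPM) were all high in the same 4 libraries. The slow muscle and ventricular light chains were low there, Myl2 at 0.49 to 5.96 TPM and Myl3 at 0.52 to 3.52 TPM, and the cardiac factor Nkx2-5 was at no more than 0.3 TPM. Against forebrain of the same line, 6 of 10 members were called higher in neural tube (19.5% of all genes were), with log2 differences of 6.71 for Actc1, 6.05 for Tnnc1, 5.31 for Myl4, 4.41 for Tnnt2, 3.76 for Myh7 and 3.46 for Myh6. Myl2 (0.17), Myl3 (0.37), Tnni3 (-0.04) and Myl7 (1.47, adjusted p = 0.101) were not called. Of 16 listed skeletal muscle genes, 15 were called higher in neural tube.

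In face the 4 members with the highest medians were Actc1, Tnnc1, Myl4 and Tnnt2, in the same order as in neural tube and at lower levels. Actc1 ran from 8.1 to 108 TPM over 16 faces, with a median of 42.1 (0.6% of the heart median). Tnnc1 ran from 2.52 to 26.1 TPM with a median of 11.7, and Myl4 from 1.48 to 24.6 TPM with a median of 9.22. Tnnt2 had a median of 3.8 TPM, Tnni3 followed at 2.25 TPM, and Myh7, at 0.425 TPM, was below Myl7 at 0.82 TPM. Myl2 had a median of 0 TPM (0 to 1.57), and Nppa was listed at 0 in 10 of 16 faces. Across the 16 faces Actc1 followed Myog with r = 0.981, Tnnc1 with 0.891, Tnnt2 with 0.89, Myl4 with 0.867 and Myh7 with 0.775 (log2 CPM plus 1), while Tnni3 had r = -0.62. Across all 44 libraries other than heart the values were 0.947 for Actc1, 0.9 for Tnnc1, 0.711 for Myl4, 0.15 for Myl2 and -0.362 for Myl7. The smooth muscle actin Acta2 was followed too, in faces with 0.91 for Actc1, 0.852 for Tnnc1, 0.835 for Tnnt2, 0.788 for Myl4 and 0.805 for Myh7. With Acta2 the values across the 44 libraries were 0.569 for Actc1, 0.526 for Tnnc1, 0.742 for Myl4, 0.07 for Myl2 and 0.586 for Myl7. The points share tissues, lines and depth, and the correlations are descriptions.

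**Figure D4:**
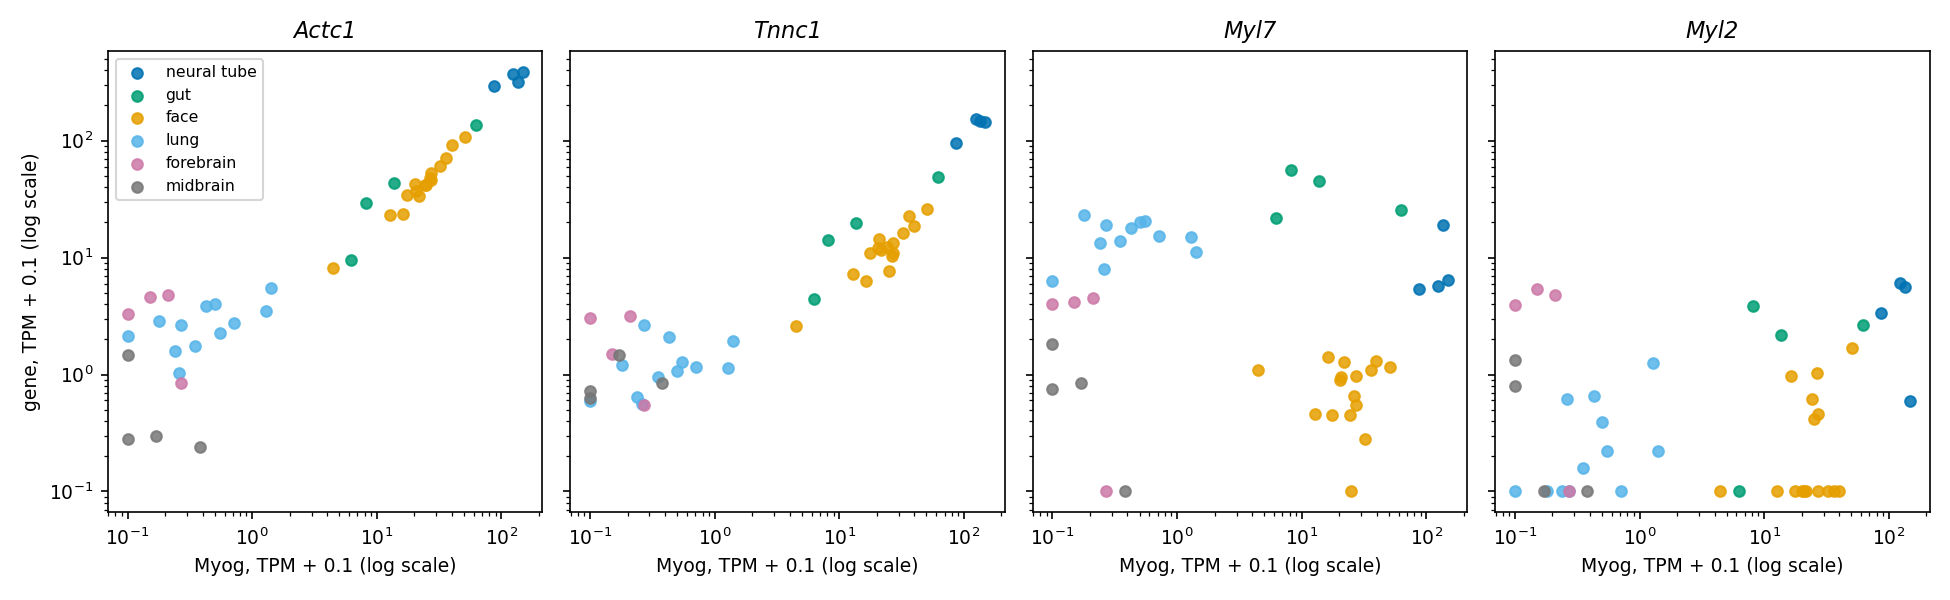
TPM + 0.1 of Actc1, Tnnc1, Myl7 and Myl2 against that of Myog, a skeletal muscle regulator, in the 44 libraries that are not hearts (both axes log scale, colours are tissues). Actc1 and Tnnc1 lie along one rising band (r = 0.947 and 0.9), while Myl7 is highest in gut and lung and low in face whatever the level of Myog.

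In lung the atrial light chain Myl7 was the leading member, and in gut its median of 35.4 TPM stood beside one of 35.9 TPM for Actc1. Per gut library, Myl7 was at 21.8 and 56.5 TPM in homozygous and 45.2 and 25.5 TPM in wild-type libraries, next to Actc1 at 9.38 and 28.9 TPM and at 42.9 and 136 TPM. Against midbrain of the same line, 7 of 9 members tested were called higher in gut, where 35.9% of all genes were: Myh6 (log2 7.07), Actc1 (6.80), Myl7 (5.73), Myl4 (5.05), Tnnt2 and Tnnc1 (4.74 each) and Tnni3 (2.39, adjusted p = 0.00223). Myh6 was at 0 to 0.05 TPM in midbrain, so its fitted value is no measure of size. Tnni3 did not pass with wild-type libraries alone (1.73, adjusted p = 0.0845), and Myl2 (2.16, adjusted p = 0.109) and Myh7 (1.31, adjusted p = 0.0993) did not pass. Nppa was at 0 to 1.21 TPM and Nkx2-5 at 2.41 to 8.43 TPM in these libraries. In the 12 lungs Myl7 ran from 6.25 to 23.1 TPM with a median of 15.1, 0.271% of its heart level. Myl4, the other atrial light chain, was next at 0.66 to 6.97 TPM with a median of 4.18. Myl2 was at 0 to 1.16 TPM there, Nkx2-5 at no more than 0.52 TPM and Nppa listed at 0 in 8 of 12 lungs. Ryr2, the calcium release channel of heart muscle, was at 0.19 to 1.0 TPM in these lungs against 2.25 to 3.92 TPM in B2 hearts, and Myocd, which smooth muscle also uses, at 2.53 to 8.9 TPM. The Cardiomyocyte list (Nkx2-5, Ryr2, Nppa, Ttn and Myocd) summed to 2.76 to 10.4 TPM in lungs and 3918 to 6017 TPM in hearts of the line.

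Brain tissues gave the background. In midbrain no member exceeded 3.29 TPM. In forebrain Myl2 was at 0 TPM in A29 and at 3.83, 4.68 and 5.29 TPM in A31, A30 and A32, and Myl7 at 0 in A29 and 3.91, 4.45 and 4.07 TPM in the same libraries. Nppa behaved alike, at 0.11 TPM in A29 and at 2.03 to 2.74 TPM in the other 3. A29 and A31 are homozygous and A30 and A32 wild-type, so the split did not follow genotype.

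Wild-type hearts differed between lines. Myl2 was at 12589, 9977, 11696 and 11418 TPM in B2 against 5804 and 4647 TPM in B3 and 5231 and 4500 TPM in B5. Tnni3 was at 1446, 1381, 1368 and 1218 TPM in B2 against 715, 592, 651 and 565 TPM in B3 and B5. In both genes every B2 heart was above every other wild-type heart. Myh6 did not follow, at 371, 443, 476 and 343 TPM in B2, 654 and 599 TPM in B3 and 383 and 296 TPM in B5. With edgeR, 9 of 10 members were called higher in B2, where 31.9% of 14628 genes were called higher and 30.6% lower. The log2 differences were 1.53 (SE 0.13, adjusted p = 7.7e-06) for Tnni3, 1.52 (SE 0.15) for Myl2, 1.52 for Myl3, 1.46 for Tnnt2, 1.37 for Tnnc1, 1.35 for Myl4, 1.31 for Myl7, 1.12 for Actc1 and 0.71 (SE 0.15, adjusted p = 0.00144) for Myh7. Myh6 was not called (0.33, 95% interval -0.04 to 0.70, adjusted p = 0.108). In TPM, 8 of 10 members did not overlap between the groups, against 11.7% of all genes; Myh6 and Myh7 did.

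Transcript length moved with this comparison. The median log2 difference was 0.65 for genes under 1000 bases, 0.49 for 1000 to 2000, 0.11 for 2000 to 3000, -0.24 for 3000 to 4000, -0.58 for 4000 to 6000 and -0.94 for genes over 6000 bases. B2 hearts gave 3.34% to 4.01% of their counts to transcripts over 6000 bases and the other hearts 5.5% to 8.3%, without overlap. The light chain and troponin transcripts are short, 590 bases for Myl7 up to 1097 for Tnnt2, Actc1 has 1473, and Myh6 and Myh7 have 5658 and 6125. Set against the median of its own length class, each member lay above it, by 0.63 (Actc1) to 0.96 (Tnnt2) for the short ones, 0.91 for Myh6 and 1.65 for Myh7. The length classes were chosen after the values were seen and carry no test. Line and library batch cannot be told apart, and the part of transcript length in the members' differences was not tested beyond these values. Erythroid genes moved too: their summed level was 67673 to 116560 TPM in B2 and 78405 to 232922 TPM in B3 and B5 wild-type hearts.

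Other genes of the heart muscle programme split in this comparison, in which 31.9% of all genes were called higher and 30.6% lower. The median log2 difference ran from 0.65 for genes under 1000 bases to -0.94 for those over 6000. The part of transcript length in the values of these lists was not tested. Of 25 other sarcomere genes 15 were called higher and 1 lower in B2, among them Tnni1 (log2 1.54), Des (1.52), Csrp3 (1.47) and Tpm1 (1.28) on the higher side and Nebl (-0.86) as the lower one, and Ttn was not called (-0.42, adjusted p = 0.107 by edgeR). Of 10 calcium handling genes 5 were higher and 4 lower, with Jph2 at 0.73 and Hrc at 0.69, and the sodium-calcium exchanger Slc8a1 at -2.40 and the calcium channel Cacna1c at -0.78. Of 12 cardiac regulators 6 were higher and 4 lower, with Nkx2-5 at 1.55, Gata4 at 0.70 and Srf at 0.47, and Myocd, a coactivator of SRF, at -1.96.

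No member passed an adjusted p of 0.05 in any of the 14 comparisons of homozygous with wild-type libraries by edgeR. DESeq2 called Myh6 in B3 heart, Tnnc1 in B4 gut, Actc1 and Myh7 in B6 face, and no member elsewhere. Over all genes, edgeR passed 0.0131% in B3 face, 0.00677% in B4 midbrain, 0.0723% in B6 face, 0.0329% in B7 face, 0.0132% in B8 neural tube and 0% in the other 9. The counts at an unadjusted p under 0.05 are given with each comparison. In the 5 tests of whether a genotype difference varied between the tissues of a line, edgeR called no member and at most 0.0311% of all genes, the value for face against heart of B3. At an unadjusted p under 0.05 these held Actc1 between gut and midbrain of B4 (log2 -4.44) and Myl4 (1.28) and Tnnt2 (1.46) between neural tube and forebrain of B8, beside 4.4% and 3.39% of all genes.

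**Figure D5:**
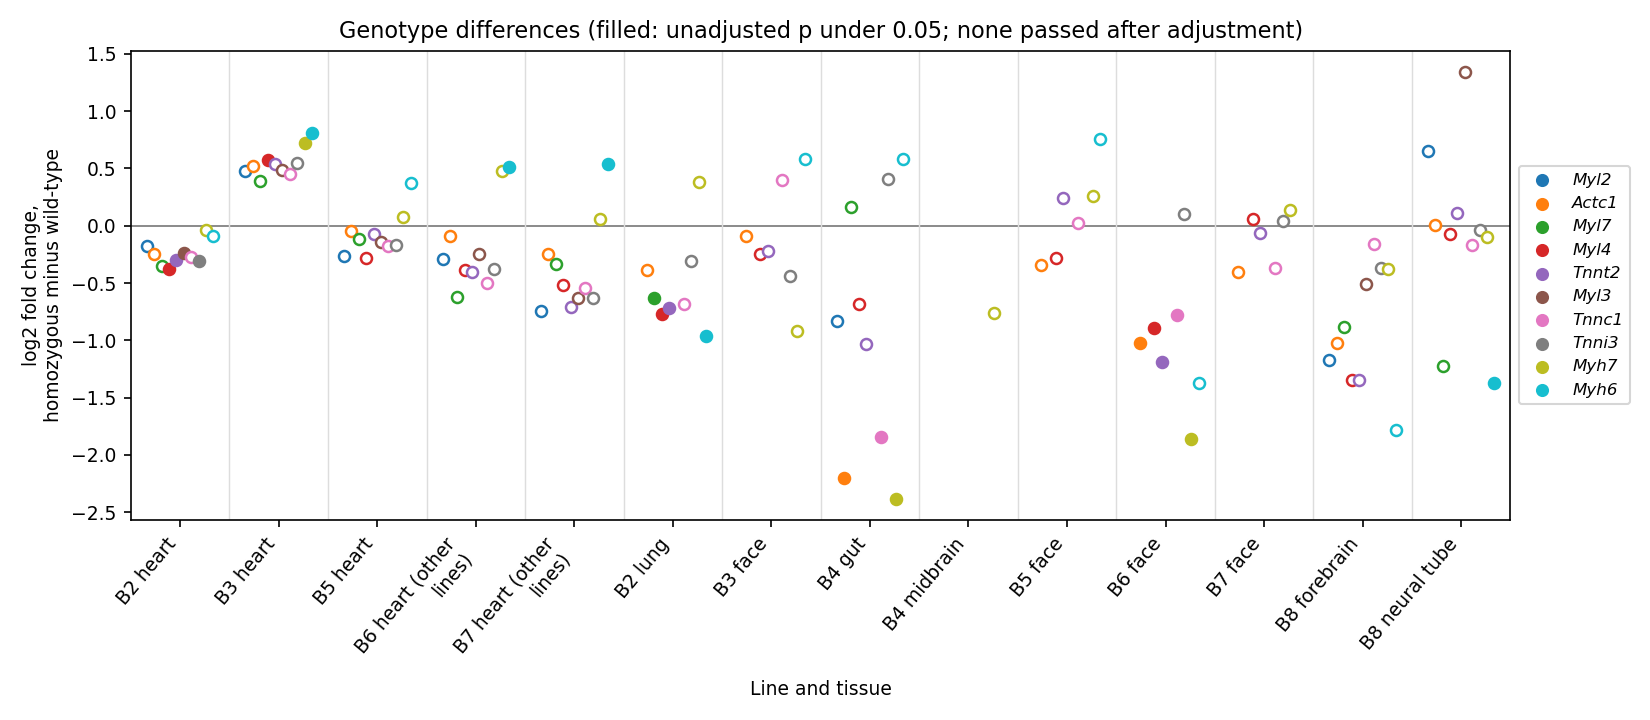
Log2 fold change, homozygous minus wild-type, of each gene tested (colours) in each line and tissue. Filled points have an unadjusted p under 0.05 and none passed after adjustment. All 10 genes are above 0 in B3 heart (0.39 to 0.81) and below 0 in B2 heart (-0.38 to -0.04); B6 and B7 hearts are set against wild-type hearts of other lines.

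In B3 hearts all 10 members had higher values in homozygous embryos. Myh6 was at 1266 and 932 TPM in homozygous and 654 and 599 TPM in wild-type hearts. Myh7 was at 1345 and 1252 TPM against 880 and 704 TPM. Myl4 was at 5699 and 4865 TPM against 3788 and 3302 TPM. All 10 members were without overlap in TPM, both homozygous hearts being above both wild-type ones, as were 17.8% of all genes in this comparison of 2 with 2. The log2 differences were 0.81 (SE 0.22, 95% interval 0.25 to 1.37, adjusted p = 0.524 by edgeR) for Myh6, 0.72 for Myh7 and 0.57 for Myl4, and 0.39 to 0.55 for the other 7, so that all 10 were above 0, as were 50.5% of all genes. At an unadjusted p under 0.05, 3 of 10 members were higher, against 4.99% of genes. DESeq2 called 1 member, Myh6 (0.80, adjusted p = 0.0205), where it called 0.633% of all genes. Without the wild-type heart A14, edgeR called 3 members, Myh6 (1.12, adjusted p = 0.0486), Myh7 (1.11, adjusted p = 0.0457) and Tnni3, and 1.56% of all genes. The 25 other sarcomere genes had a median of 0.55, all above 0 and 10 of them at an unadjusted p under 0.05, and the 10 calcium handling genes a median of 0.61, beside a median of 0 over all genes. The Cardiomyocyte list summed to 2547 and 3666 TPM in homozygous and 1884 and 2325 TPM in wild-type hearts. The 5 Erythroid genes were all below 0 with a median of -0.60, and the part of that in the members' difference was not tested. In face of the same line, 7 members were tested and had a median of -0.22, with none at an unadjusted p under 0.05 (9.49% of genes had one). The test of the difference between face and heart called no member, and Tnni3 without A14.

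B2 hearts went the other way by a smaller amount. Myl4 was at 7291, 6418, 6600 and 4331 TPM in homozygous and 7271, 7212, 7483 and 8006 TPM in wild-type hearts. Tnni3 was at 1487, 1281, 1127 and 962 TPM against 1446, 1381, 1368 and 1218 TPM. The groups overlapped for both, as for all 10 members (0.223% of genes were without overlap in this direction), and the lowest value in each was that of A58. All 10 members had log2 differences below 0, as did 47.9% of all genes, from -0.38 (SE 0.14, adjusted p = 0.867 by edgeR) for Myl4 to -0.04 for Myh7. In TPM the direction of the heavy chains was the opposite, with means of 424 TPM in homozygous and 408 TPM in wild-type hearts for Myh6 and of 957 and 879 TPM for Myh7. At an unadjusted p under 0.05, 4 of 10 were lower (Myl3, Myl4, Tnnt2 and Tnni3), against 2.79% of genes, and DESeq2 called none, with 5 members at an unadjusted p under 0.05. Without A58 the members' median moved from -0.26 to -0.14, 8 of 10 were below 0 and 3 had an unadjusted p under 0.05. The share of all genes at that level was not set beside this count or that by DESeq2. Genes under 1000 bases had a median of -0.14 in this comparison and those over 6000 bases 0.07.

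In B5 hearts the direction rested on 1 library. Myl2 was at 2650 TPM in A21 and 5712 TPM in A22 among homozygous hearts, and at 5231 and 4500 TPM in wild-type hearts. Myl3 was at 1118 and 2180 TPM against 1813 and 1586 TPM. In both genes A21 was the lowest and A22 the highest of the 4 hearts. With all 4 hearts the members' log2 differences ran from -0.28 to 0.37, none with an unadjusted p under 0.05 (0.748% of genes had one) by edgeR or DESeq2. Without A21 all 10 were above 0, with a median of 0.47. Without A22 all 10 were below 0, with a median of -1.15. Each of these fits leaves 1 homozygous heart. A21 is the heart with face and neural marker RNA described above, and the part of that in its member levels was not tested.

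B6 and B7 homozygous hearts lacked wild-type hearts from the same line, so the 8 wild-type hearts from B2, B3 and B5 served as the reference. Myh6 was at 965 and 796 TPM in B6 and 792 and 661 TPM in B7, and at 296 to 654 TPM in the 8 wild-type hearts. Its log2 difference was 0.51 (SE 0.23, adjusted p = 0.295 by edgeR) in B6 and 0.54 (SE 0.22, adjusted p = 0.506) in B7. It was the only member with an unadjusted p under 0.05 in either comparison (8.3% and 4.03% of genes were higher at that level), and DESeq2 called none. The result depended on the wild-type line: against B2 alone 9 members were called in each, 8 of them lower and Myh6 higher (0.43 in both), beside 58% and 57.5% of all genes. Against B5 alone, 5 members were called, all higher, in B6 (14.7% of genes) and Myh6 alone in B7 (5.44%). Against B3 alone none was called. For Myh6 the direction was the same against B2 and against B5. Transcript length moved with both comparisons: the median log2 difference ran from -0.48 for genes under 1000 bases to 0.62 for those over 6000 in B6, and from -0.34 to 0.51 in B7. In the class of Myh6, 4000 to 6000 bases, it was 0.32 and 0.26, so that Myh6 lay 0.19 and 0.27 above its class, and the part of length in its difference was not tested beyond these values.

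In faces of B6, Actc1, Tnnt2, Tnnc1, Myl4 and Myh7 had lower values in homozygous embryos. Actc1 was at 46 and 37 TPM in homozygous and 70.9 and 108 TPM in wild-type faces. Tnnt2 was at 3.7 and 3.9 TPM against 7.35 and 11.3 TPM. Tnnc1 was at 13.2 and 14.3 TPM against 22.4 and 26.1 TPM. Of 7 members tested, these 3 together with Myl4 and Myh7 were without overlap in TPM, as were 22.6% of all genes. The log2 differences were -1.02 (SE 0.15, 95% interval -1.38 to -0.66, adjusted p = 0.116 by edgeR) for Actc1, -1.86 for Myh7 (adjusted p = 0.166), -1.19 for Tnnt2, -0.89 for Myl4 and -0.78 for Tnnc1. At an unadjusted p under 0.05, 5 of 7 were lower, against 6.09% of genes, while 0.0723% of genes passed after adjustment. DESeq2 called 2 members, Actc1 (adjusted p = 1.37e-05) and Myh7 (adjusted p = 0.00373), and 1.08% of all genes. In edgeR fits that left out 1 of the 4 faces, the log2 difference of Actc1 was -1.11 without A5 and -0.92 without A7. It was -1.19 without A27 and -0.82 without A28. Each of these fits leaves 1 library in a group. Skeletal muscle genes moved with them: Myog was at 27.1 and 20.7 TPM against 36 and 50.9 TPM, the Skeletal muscle list summed to 124 and 155 TPM against 225 and 288 TPM, and 9 of its 14 genes tested were lower at an unadjusted p under 0.05, with a median of -0.82. The Smooth muscle list was lower as well, at 115 and 124 TPM against 169 and 203 TPM. The part of either list in the members' difference was not tested. Myl2, Myl3 and Myl7 were too low to be tested. In faces of B5 and B7 no member was at an unadjusted p under 0.05, where 3.21% and 7.55% of genes were. In B7, the homozygous face A1 had Actc1 at 8.1 TPM and Myog at 4.36 TPM, both the lowest of all faces, and without the other homozygous face A3 edgeR called Actc1, Myl4 and Tnnc1 lower beside 4.07% of all genes.

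Gut of B4 gave lower values for some of the same members. Actc1 was at 9.38 and 28.9 TPM in homozygous and 42.9 and 136 TPM in wild-type gut. Tnnc1 was at 4.36 and 14 TPM against 19.6 and 49.2 TPM. Both were without overlap, as was Myh7, which makes 3 of 9 members tested against 18.2% of all genes. The log2 differences were -2.20 (SE 0.59, adjusted p = 0.422 by edgeR) for Actc1, -1.84 (SE 0.55, adjusted p = 0.512) for Tnnc1 and -2.38 (SE 0.81, adjusted p = 0.584) for Myh7, the 3 members lower at an unadjusted p under 0.05 (4.64% of genes were). For Myl7 it was 0.16 (95% interval -0.96 to 1.29). DESeq2 called Tnnc1 alone (adjusted p = 0.0425). Without the wild-type gut A42 edgeR called Actc1, Tnnc1 and Myh7 (1.02% of all genes), and without the homozygous gut A43 it called Actc1, Myh6, Myl4, Tnnc1 and Tnnt2 (0.22%). The wild-type gut A44, with the highest Actc1, had Myog at 62.3 TPM against 6.14 to 13.6 TPM in the other 3, and 9 of 13 Skeletal muscle genes tested were lower in homozygous gut at an unadjusted p under 0.05. The Smooth muscle list summed to 188 and 286 TPM in homozygous and 289 and 438 TPM in wild-type gut, and the Cardiomyocyte list to 7.49 and 7.53 TPM against 10.5 and 12 TPM. The part of these lists in the members' difference was not tested. In midbrain, Myh7 was the 1 member high enough to be tested, and its log2 difference was -0.76 (adjusted p = 0.73).

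In B2 lungs, 4 of 8 members tested were lower in homozygous embryos at an unadjusted p under 0.05, against 1.83% of genes, and none passed after adjustment by edgeR or DESeq2. Myl7 was at 7.88 TPM at the lowest, 14.1 at the median and 20.6 at the highest in homozygous lungs, and at 6.25, 18.3 and 23.1 TPM in wild-type lungs. The groups overlapped for all 8 members, and 0.00664% of all genes were without overlap in this direction. The log2 differences were -0.72 (SE 0.23) for Tnnt2, -0.63 (SE 0.22) for Myl7, -0.77 (SE 0.28) for Myl4 and -0.96 (SE 0.36) for Myh6, all with an adjusted p of 0.89 by edgeR. Without E5420-07 and E5420-09, both wild-type, they were -0.76, -0.46, -0.63 and -0.80, and 3 members kept an unadjusted p under 0.05. The share of all genes at that level in this fit was not set beside that count. E5420-09 had the lowest wild-type TPM of all 4 genes, with 90.1% of its counts in 10 genes. The part of that share in its TPM was not tested. Hepatocyte genes differed as well, with list sums of 13.4 to 126 TPM in homozygous and 0.58 to 25.1 TPM in wild-type lungs, and the part of that in the members' difference was not tested.

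In B8 neural tube Myh6 was at 0.70 and 0.99 TPM in homozygous and 2.42 and 3.92 TPM in wild-type libraries, with a log2 difference of -1.37 (SE 0.32, adjusted p = 0.419 by edgeR). It was the only member at an unadjusted p under 0.05, where 6.52% of genes were lower, and DESeq2 called none. For the members that were high in this tissue, Actc1, Tnnc1, Myl4, Tnnt2 and Myh7, the 95% intervals of the log2 difference include 0. The Smooth muscle list summed to 187 and 250 TPM in homozygous and 282 and 316 TPM in wild-type neural tubes, and its part in the Myh6 difference was not tested. Without the homozygous library A35, Myh6 and Tnnc1 were called beside 6.48% of all genes. In forebrain all 10 members had log2 differences below 0, as did 52.6% of all genes, with a median of -0.95 and a range of -1.78 to -0.16. A29, with the low values given above, is 1 of the 2 homozygous libraries. No member was at an unadjusted p under 0.05 (5.57% of genes were), and without A31 Actc1 alone was called (2.13% of genes), which leaves the low library A29 as the only homozygous one.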

How the data were processed

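RNA-seq of 64 mouse tissue libraries was analysed. Per the paper's methods and the labels, the authors made 150 bp paired-end libraries, aligned reads to mm10 with STAR (V2.12) and estimated expected counts and TPM per gene with RSEM (1.4.1) on the gencode M4 annotation. The deposited expected counts are not whole and were rounded for tests. The deposited TPM, which the authors scaled for transcript length and library size, were used for levels and ratios. The strandedness of the counting was not given in the sources used here. Each table held 69690 entries, of which 43346 were Ensembl genes and 42462 were named from GENCODE M21; other entries took at most 2.19e-05% of counts.

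Groups came from the labels. Tests used edgeR 4.0.16 (R 4.3.3) with filterByExpr, TMM factors, the quasi-likelihood test and Benjamini-Hochberg adjustment over all genes tested, called at an adjusted p under 0.05. There were 14 genotype, 4 tissue, 1 line and 5 interaction comparisons. Alternatives tried were no filter, DESeq2 1.42.0, RLE factors, CPM in place of TPM, a joint fit, sex or the shared title code in the lung model, and leaving out each library. The isoform ratios without A58 were added after seeing the data. The fit was tested on simulated counts. Ratios added 0.1 TPM to both genes. Promoter sequences came from RefSeq (GRCm38.p6).

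The named genes are the members, the 10 genes most like them over hearts and over all libraries, up to 4 called genes of each list, defining markers and paralogs. The members and lists were chosen with earlier results of these data known. Nothing said that replicates of a line came from separate litters, so p-values measure the spread between these libraries. 64 replicate pairs were compared and none agreed within sampling noise (lowest chi-square per gene 6.69). The 23 Hi-C samples were not analysed here.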

Additional observations from a re-analysis of the deposited data

Results flagged for a closer look

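Of 46 sets of 4 or 6 libraries examined for a library far from the rest, 2 held one, and chance alone marks about 1 in 20 such sets.

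Myl4 in the B2 wild-type lung E5420-09 was at 0.66 TPM, while the other 5 wild-type lungs lay between 4.72 and 6.97 TPM, so that the gap took 0.643 of the whole range (limit 0.625 for 6 libraries). This lung also had the lowest Myl7, Tnnt2 and Tnni3 TPM of the wild-type lungs, and its mitochondrial share was 1.54%. The 10 highest genes took 90.1% of its counts, and the part of that in its TPM was not tested. In library-scaled counts (CPM) the lowest Myl4 of the 12 lungs was 1.93, with a median of 4.23.

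The log2 ratio of Myl2 to Myl7 in the B2 homozygous heart A58 was 1.46, while the other 3 hearts of its group lay between 0.45 and 0.62, a gap of 0.834 of the range (limit 0.829 for 4 libraries). Its Myl7 was 3874 TPM and its Hepatocyte list sum 709 TPM, and the part of the latter in the ratio was not tested.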

How the results depend on the processing

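Over the members with an unadjusted p under 0.05, 1004 values were recomputed under alternatives: none reversed, 968 kept their side of the threshold, 1 lost its call (Tnni3, gut against midbrain, with wild-type libraries only) and 35 gained one. All 68 values with RLE factors stayed on their side. Members with a higher p were not among these values, and so none of the 10 in B5 hearts was. There all members were above 0 without A21 and below 0 without A22. DESeq2 called 1 member in B3 heart, 1 in B4 gut and 2 in B6 face, against 0 by edgeR. With no filter for low counts, edgeR called 4 in B4 gut, 5 in B6 face and 1 in B8 neural tube. The share of all genes called without the filter was not set beside these counts, so they are not read as a result about the members. For Actc1 in B4 gut this fit gave a log2 difference of -2.19 and an adjusted p of 9.65e-37, against 0.422 with the filter. Against B2 wild-type hearts only, 9 members were called in B6 and 9 in B7 hearts, and against B5 only 5 and 1. Leaving out each library in turn gave 0 to 3 calls in B3 heart, 0 to 7 in B5 heart, 0 to 5 in B4 gut, 1 to 4 in B6 face, 0 to 3 in B7 face, 0 to 1 in B8 forebrain, 0 to 2 in B8 neural tube and 0 to 1 for the B3 face against heart difference; the cause was not tested. With CPM, which is not scaled for length, the neural tube levels became 0.54% (Myh7), 1.33% (Myl4), 0.914% (Tnnt2), 4.23% (Tnnc1) and 3.08% (Actc1) of the heart medians, and the lung levels 0.154% (Myl4) and 0.597% (Myl7). In B2 lung, with the code that titles of both genotypes share (E5403, E5406 or E5420) in the model, 0 members were called and the log2 differences of Tnnt2, Myl7, Myl4 and Myh6 were -0.83, -0.50, -0.70 and -1.03; with sex in the model 0 were called and they were -0.71, -0.63, -0.80 and -1.01, and 4 of 8 members had an unadjusted p under 0.05 in both fits. The share of all genes at that level was not set beside these lung counts. No paired analysis was possible in the other comparisons because their labels carry no number shared between the genotypes. A fit that leaves 1 library in a group assumes that it varies like the other group. With 2 libraries a group and the filter for low counts, a log2 difference of -2.38 (Myh7, B4 gut) was not called.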
